A study of Mus musculus with 24 samples.

Results

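The levels of 9 macrophage polarization marker genes were followed across all 24 constructs, 9 of the 51138 genes counted. The rule names the genes and uses no measured value, although the set was drawn up with earlier results of these data known: 4 scavenger or surface receptors of tissue-resident macrophages (Cd163, Mrc1, Folr2 and Lyve1), 2 genes of alternative activation (Chil3 and Retnla), the lipid-sensing receptor gene Trem2, and 2 genes of inflammatory activation (Nos2 and Cd86). All 9 were found once each in the table of counts, and all 9 passed the filter on low counts. Constructs were granules of biphasic calcium phosphate (BCP, 40 mg), a ceramic bone substitute, placed under the back skin of Foxp3 DTR/eGFP mice, males and females of 8 to 9 weeks, with 2 pockets of the same kind per mouse, and they were taken out at week 2. In the BCP group the granules carried no cells. The other groups carried 800000 mesenchymal stromal cells (MSC) from bone marrow of wild-type C57BL/6J mice, either as they were (BCP+MSC), primed for 36 h with 10 nM of resolvin E1 (BCP+MSC+RvE1), a lipid mediator of the resolution of inflammation, or cocultured for 36 h with activated regulatory T cells (BCP+MSC+Treg). Mice of the (dep)BCP+MSC group received the construct with unprimed MSC and injections of diphtheria toxin (50 µg/kg), and mice of the (dep)BCP+MSC+RvE1inj group received these and a daily local injection of RvE1 (1 µM in 50 µL). All 6 groups share the strain, in which the Foxp3 promoter drives the toxin receptor, so the toxin reaches Foxp3-expressing cells of the host. Each group held 4 constructs, each from its own animal by the study's account. The sample labels give these groups only by the short names BCP, MSC, R, T, DT and DTR, and reading R as BCP+MSC+RvE1, T as BCP+MSC+Treg, DT as toxin alone and DTR as toxin with injected RvE1 rests on the groups the study describes. The label R is the least certain, because the counting command also names 4 libraries after RvE1 that have no column. No group received the toxin without carrying the receptor, so the toxin itself, the loss of Foxp3+ cells and anything else particular to those mice cannot be told apart here.

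Macrophages take up particles and dead cells and are the main cells that meet a ceramic implant, around which they can fuse into giant cells. Interleukins 4 and 13, signalling through STAT6, raise the transcripts of Chil3, Retnla and Mrc1, whereas interferon gamma and bacterial products raise Nos2 and Cd86. Cd163, Folr2 and Lyve1 mark macrophages settled in tissue, and Trem2 marks macrophages that handle lipids. These names describe the ends of a range, and 1 cell can express genes of several of them.

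Total counts per library ran from 8482701 to 144417743, a 17.0-fold range, and 7 libraries held fewer than 20000000. The smallest count of any marker in any library was 18, for Folr2. Foxp3, the gene that marks the cells the toxin is aimed at, was at 0.298 to 1.69 CPM (counts scaled to the normalised size of each library) in the 8 constructs of toxin-treated mice and at 0.356 to 2.14 CPM in the 16 others, and it did not pass the test (log2 fold change -0.15, adjusted p = 0.832 in edgeR), so a difference in Foxp3 was not detectable in the construct RNA at this depth, and these groups are called toxin-treated here. The study reports a reduction of Treg in lymph nodes and spleen by flow cytometry, which was not analysed here. The 12 pan-macrophage genes (Adgre1, Csf1r, Cd68 and others) were detected throughout, with a mean log2 CPM of 7.14 to 8.28 per construct. The RNA came from whole constructs, so fewer cells of a type and less RNA per cell cannot be told apart.

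The clearest pattern among the 9 genes was a higher level of Cd163 and Chil3 in mice given the toxin. Cd163, the scavenger receptor for haemoglobin bound to haptoglobin, was at 490.4, 606, 449.5 and 397 CPM in (dep)BCP+MSC. It was at 486, 491, 452 and 598 CPM in (dep)BCP+MSC+RvE1inj. It was at 133, 23.7, 212 and 133 CPM in BCP+MSC. Every construct of both toxin-treated groups lay above every construct of BCP+MSC. The same held against the remaining groups, where BCP+MSC+Treg had 56.2, 196, 77.2 and 278 CPM, BCP+MSC+RvE1 had 28.8, 97.4, 75.0 and 194 CPM and BCP had 37.0, 68.8, 109 and 72.1 CPM. Of all genes tested, 0.386% lay higher in all 8 toxin-treated constructs than in all 16 others. Against BCP+MSC alone, 4.22% lay higher without overlap in (dep)BCP+MSC and 2.77% in (dep)BCP+MSC+RvE1inj. For Cd163 the 8 constructs from toxin-treated mice spanned 1.53-fold, while the 16 others spanned 11.7-fold.

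Chil3, which encodes the secreted chitinase-like protein Ym1, was also higher, with a wider spread. It was at 7426, 10875, 3374 and 6891 CPM in (dep)BCP+MSC. It was at 4316, 3964, 2647 and 9654 CPM in (dep)BCP+MSC+RvE1inj. It was at 1294, 166, 917 and 1070.5 CPM in BCP+MSC. The toxin-treated groups again did not overlap with BCP+MSC, nor with BCP (47.5, 1800.5, 1411 and 80.6 CPM), BCP+MSC+RvE1 (101, 1279.6, 713 and 1136 CPM) or BCP+MSC+Treg (371, 2250.5, 1408 and 616 CPM). Per transcript length, in CPM per kilobase of exon (RPKM), Chil3 stood at 4376 ± 1881 (SD, n = 4) in (dep)BCP+MSC and Retnla at 2589 ± 2806, whereas in BCP+MSC the values were 528 ± 299.8 and 4429 ± 3187. In (dep)BCP+MSC+RvE1inj, also toxin-treated, they were 3153 ± 1894 and 6813 ± 2095, the same order as in BCP+MSC. The higher mean of Chil3 in (dep)BCP+MSC was not shared by the construct of column 5, where Retnla was the higher, and the gap between the genes was not tested.

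**Figure D1:**
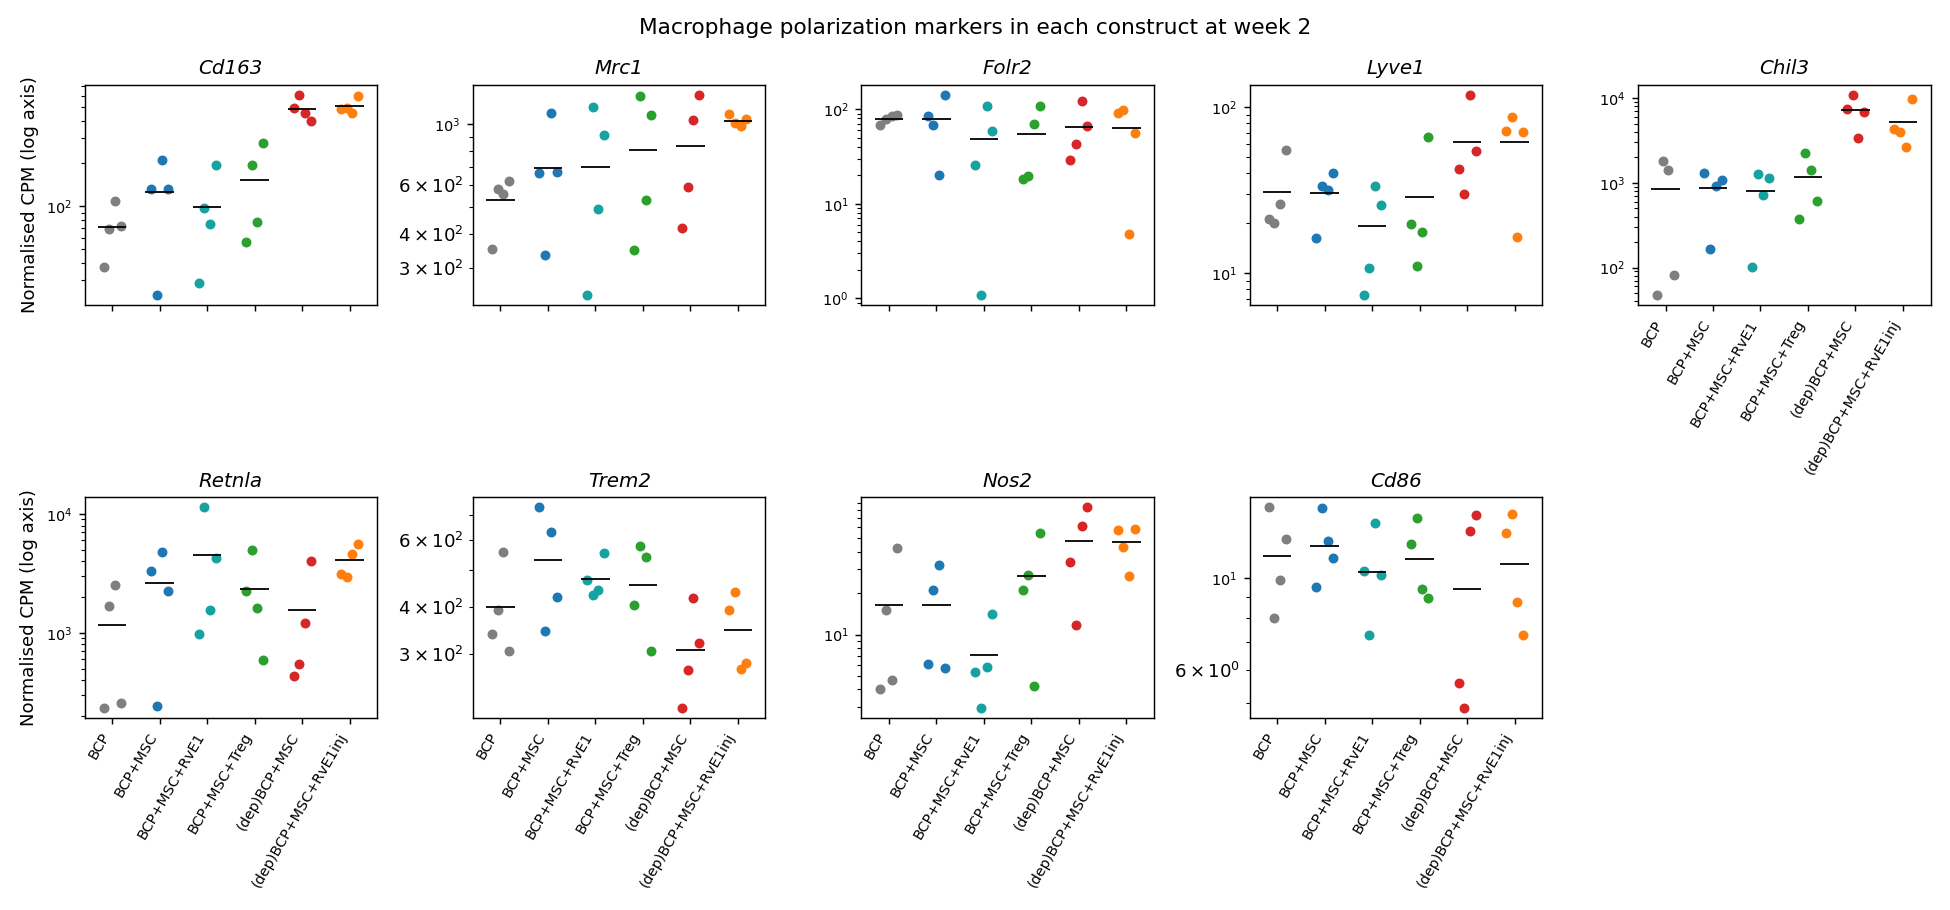
Normalised CPM of the 9 markers on a log axis (a scale of its own in each panel), 1 point per construct, with the group mean as a black line and 4 constructs per group on the x axis. In the Cd163 and Chil3 panels the 8 points of the 2 toxin-treated groups lie above all 16 others, as 0.386% of all genes tested did, while in the other panels the groups overlap.

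The promoters of Cd163 and Chil3, the pair that did not overlap between toxin-treated and other constructs, are shown beside those of Retnla, whose levels overlapped, and Trem2, whose estimate was lower. They are the 250 bases before and 50 after the start in RefSeq (GRCm38.p6), 5′ to 3′ on the strand of the gene, with motif matches in capitals.
Cd163, chr6:124304401-124304700, plus strand: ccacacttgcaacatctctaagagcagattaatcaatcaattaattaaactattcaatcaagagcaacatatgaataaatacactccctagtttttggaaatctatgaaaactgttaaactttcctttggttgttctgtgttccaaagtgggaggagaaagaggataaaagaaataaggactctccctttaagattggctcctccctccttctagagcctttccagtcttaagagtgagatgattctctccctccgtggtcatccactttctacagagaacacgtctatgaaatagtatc
Chil3, chr3:106167515-106167814, minus strand: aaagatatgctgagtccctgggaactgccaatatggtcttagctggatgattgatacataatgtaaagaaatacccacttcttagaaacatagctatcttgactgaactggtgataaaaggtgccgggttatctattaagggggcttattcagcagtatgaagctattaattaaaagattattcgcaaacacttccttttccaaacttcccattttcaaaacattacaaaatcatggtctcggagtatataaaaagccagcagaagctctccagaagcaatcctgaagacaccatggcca
Retnla, chr16:48842359-48842658, plus strand: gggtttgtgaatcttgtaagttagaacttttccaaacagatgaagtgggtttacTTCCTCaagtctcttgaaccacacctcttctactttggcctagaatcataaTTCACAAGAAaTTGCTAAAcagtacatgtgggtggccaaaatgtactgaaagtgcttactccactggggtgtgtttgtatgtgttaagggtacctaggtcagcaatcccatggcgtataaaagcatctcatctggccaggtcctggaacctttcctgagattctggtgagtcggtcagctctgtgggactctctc
Trem2, chr17:48346151-48346450, plus strand: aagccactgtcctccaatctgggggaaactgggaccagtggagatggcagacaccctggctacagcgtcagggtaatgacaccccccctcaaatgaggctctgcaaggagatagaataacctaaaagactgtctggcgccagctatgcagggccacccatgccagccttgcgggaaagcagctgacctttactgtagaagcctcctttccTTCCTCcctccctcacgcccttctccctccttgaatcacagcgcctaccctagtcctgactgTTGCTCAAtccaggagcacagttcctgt

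3 motifs were searched on both strands: TTCNNNNGAA, the site preferred by STAT6, GAGGAA for the myeloid factor PU.1, and TTGCNNAA for C/EBP factors. No 2 matches in these promoters overlap. Of 32544 mouse promoters of this length, 6.98% hold the first, 28.1% the second and 10.8% the third. Retnla holds the STAT6 letters at -145 from the start, with PU.1 letters at -196 and C/EBP letters at -134. Trem2 holds the PU.1 letters at -40 and the C/EBP letters at 22, and Cd163 and Chil3 hold none of the 3. The promoter of Mrc1 holds the PU.1 letters 3 times and those of Folr2 none; Lyve1, Nos2 and Cd86 were not matched in the table used. The absence of these letters from this window in Cd163 and Chil3 says nothing of more distant elements or of the factors themselves.

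The comparison of (dep)BCP+MSC with BCP+MSC asks what toxin treatment changes when the construct is the same. In edgeR's quasi-likelihood fit the log2 fold change of Cd163 was 1.96 (SE 0.58, unadjusted p = 0.00273, adjusted p = 0.0598) and that of Chil3 3.05 (SE 1.00, unadjusted p = 0.00647, adjusted p = 0.0931). With a call set at an adjusted p under 0.05 and a change larger than 1 on the log2 scale, 0 of the 9 markers were called, where 3.14% of the 30564 genes tested were; 3 of the 9 had an unadjusted p under 0.05, beside 20.3% of all genes. At an unadjusted p under 0.05 with the same fold, a looser rule that the study also used, the called markers were Cd163 and Chil3, 2 of 9, beside 13.2% of all genes. DESeq2 on the same counts called both at the adjusted threshold (adjusted p = 0.0051 and 0.00323), and edgeR called Cd163 with libraries scaled to the pan-macrophage genes (adjusted p = 0.0304) or with a stricter filter on low counts (0.0364). Of 9 other settings in all, 4 gave Cd163 an adjusted p under 0.05 and 2 gave Chil3 one, with highest values of 0.161 and 0.136. With 1 construct left out, 0 of 8 fits did so for either gene, and the values reached 0.149 and 0.208. Over all genes DESeq2 called 1842, where edgeR called 959. The call at the adjusted threshold thus turned on the tool and the settings, while the direction was the same in each of them.

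Against the same BCP+MSC constructs, (dep)BCP+MSC+RvE1inj gave a log2 fold change of 2.02 for Cd163 (SE 0.58, unadjusted p = 0.00217, adjusted p = 0.114) and 2.58 for Chil3 (SE 0.98, unadjusted p = 0.0164, adjusted p = 0.249). Both comparisons use these BCP+MSC constructs, so their likeness is not a repeat. No marker passed the adjusted rule in edgeR (0 of 9, beside 0.661% of all genes), 3 had an unadjusted p under 0.05 (beside 13.7%), 2 passed the unadjusted rule (beside 9.45%), and DESeq2 called both Cd163 and Chil3 (adjusted p = 0.00868 and 0.0333). DESeq2 was the 1 of 9 other settings with an adjusted p under 0.05 for either gene, and the highest values were 0.571 and 0.563. With 1 construct left out, 0 of 8 fits reached it for either gene. Over all genes DESeq2 called 852 in this comparison, where edgeR called 202. The share of all genes whose groups did not overlap was 9.15% in the first comparison and 7.21% in the second, and among the markers it was Cd163 and Chil3 in both.

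After these values had been seen, both toxin-treated groups were set against the 4 others in the same fit, as 8 constructs against 16. Since the contrast was chosen for the pattern, its p-values describe that pattern and are not independent support. Cd163 was 2.20 higher on the log2 scale (SE 0.33, 95% interval 1.52 to 2.88, adjusted p = 1.02e-04) and Chil3 2.74 higher (SE 0.55, 1.60 to 3.89, adjusted p = 0.00193). The adjusted rule called 4 of the 9 markers, all of them higher (Cd163, Chil3, Nos2 and Lyve1), beside 8.98% of all genes, and the unadjusted rule called the same 4, beside 15.4%. Without the (dep)BCP+MSC constructs of columns 4 and 5 together, the adjusted rule called 2, Cd163 and Chil3, beside 10.8% of all genes. Of all genes tested, 0.386% lay higher in all 8 toxin-treated constructs than in any other, and among the markers these were Cd163 and Chil3. The median log2 fold change was 0.46 over the 9 markers and -0.01 over all genes. Leaving out each construct in turn kept Cd163 at 2.13 to 2.34 and Chil3 at 2.48 to 2.90, with every adjusted p under 0.05, and without the 7 shallow libraries the values were 2.24 and 2.39 (adjusted p = 0.0131 and 0.0178).

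**Figure D2:**
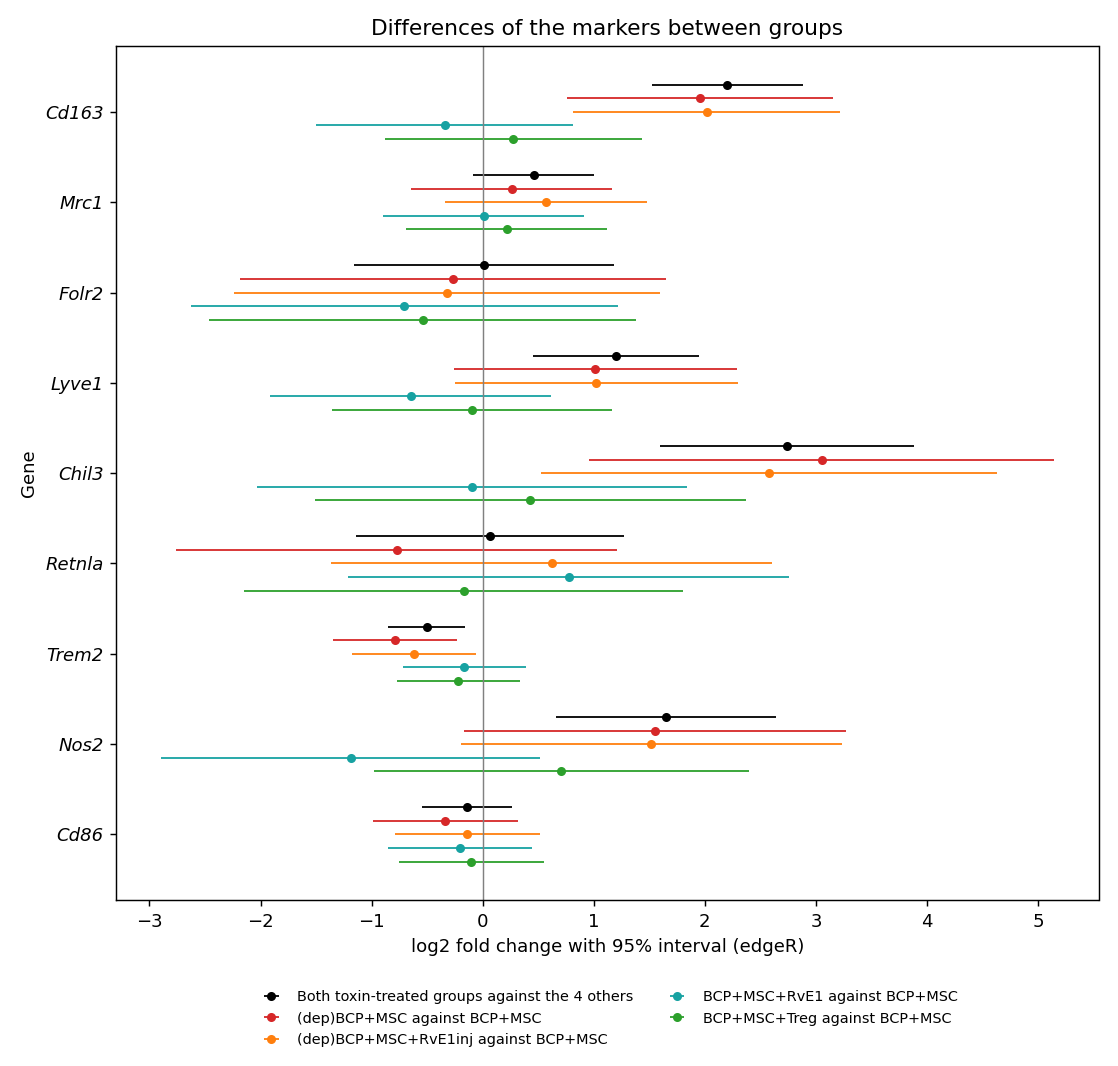
Log2 fold changes of the 9 markers (x axis) with 95% intervals (not adjusted for the number of genes) from the edgeR fit of all 6 groups, in 5 comparisons shown by colour. For Cd163 and Chil3 the intervals of the 3 toxin comparisons lie above 0, and for Trem2 below 0, while every interval of the RvE1 and Treg priming comparisons crosses 0.

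Nos2, the inducible nitric oxide synthase of inflammatory macrophages, was also higher in the pooled contrast. It was at 33.6, 11.7, 61.3 and 83.7 CPM in (dep)BCP+MSC and at 57.5, 43.5, 26.7 and 58.8 CPM in (dep)BCP+MSC+RvE1inj. It ran from 2.95 to 54.7 CPM in the 16 others, with a median of 10.1, and 4 of the 8 toxin-treated constructs lay above all of those. The log2 fold change was 1.65 (SE 0.47, adjusted p = 0.0224). Against BCP+MSC alone it was 1.55 in (dep)BCP+MSC (unadjusted p = 0.0745) and 1.52 in (dep)BCP+MSC+RvE1inj (unadjusted p = 0.0797), neither past a threshold. With 1 construct left out the first ran from 1.12 to 2.11, with an unadjusted p under 0.05 in 2 of 8 fits, and without columns 4 and 5 of (dep)BCP+MSC together it was 0.51. The pooled call was lost without the (dep)BCP+MSC construct whose column is numbered 5 (adjusted p = 0.0552), and without columns 4 and 5 together the log2 fold change was 1.14 (adjusted p = 0.162). Cd86, the costimulatory ligand of CD28 on T cells, was low in all groups: 5.58, 4.87, 13.0 and 14.2 CPM in (dep)BCP+MSC, 12.9, 14.3, 8.73 and 7.28 CPM in (dep)BCP+MSC+RvE1inj and 7.28 to 14.8 CPM in the 16 others. Its pooled log2 fold change was -0.14 (95% interval -0.54 to 0.26), turning to 0.02 with libraries scaled to the pan-macrophage genes. The value depended on columns 4 and 5 of (dep)BCP+MSC, where Cd86 was higher than in replicates 1 and 2 of that group. Without both columns the pooled value was -0.55 (adjusted p = 0.0486), and (dep)BCP+MSC against BCP+MSC moved from -0.34 (adjusted p = 0.589) to -1.17 (adjusted p = 0.0291), a call that the fit of all libraries did not make, in a fit that called 8.92% of all genes. The difference between the 2 inflammatory markers was not tested.

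Trem2 was the 1 marker with a lower level at an adjusted p under 0.05 in the pooled contrast. It was at 217, 272, 424 and 322 CPM in (dep)BCP+MSC and at 392, 438, 274 and 285 CPM in (dep)BCP+MSC+RvE1inj, against 733, 346, 632 and 424 CPM in BCP+MSC. The groups overlapped, and 4 of the 8 toxin-treated constructs lay below all 16 others, which ran from 306 to 733 CPM. The log2 fold change was -0.79 in (dep)BCP+MSC (SE 0.27, unadjusted p = 0.00733, adjusted p = 0.0993) and -0.62 in (dep)BCP+MSC+RvE1inj (SE 0.27, unadjusted p = 0.0304). The second value had an unadjusted p under 0.05 in 4 of 8 fits with 1 construct left out, and without the shallow libraries it was -0.32 (unadjusted p = 0.3). In the pooled contrast it was -0.50 (SE 0.17, adjusted p = 0.0423), a fold too small for the call. Without the (dep)BCP+MSC columns 4 and 5 it was -0.65 (adjusted p = 0.0184), and (dep)BCP+MSC against BCP+MSC was -1.11 (adjusted p = 0.034), past the call. In that comparison the fit called 8.92% of all genes, where the fit of all libraries called 3.14%. With 1 construct left out the pooled adjusted p stayed under 0.05 in 9 of 24 fits and reached 0.0959 at most, and it rose to 0.197 (log2 -0.28) when libraries were scaled to the pan-macrophage genes. Trem2 was also the marker whose CPM followed library depth most closely (Spearman rho 0.62 over 24 libraries), and without the 7 shallow libraries its pooled value was -0.39 (adjusted p = 0.256). The part of depth in the result was not tested further.

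Relative to the 12 pan-macrophage genes the separation of Cd163 remained. Their mean log2 CPM was 7.62 ± 0.43 (SD, n = 4) in (dep)BCP+MSC, 7.75 ± 0.44 in (dep)BCP+MSC+RvE1inj and 7.92 ± 0.10 in BCP+MSC. Cd163 lay 0.74 to 1.88 log2 units above that mean in the 8 toxin-treated constructs and from -3.27 to 0.226 in the 16 others. Chil3 lay 3.66 to 6.04 above it in the former and from -2.33 to 3.15 in the latter. Both ranges stayed apart. For Trem2 they overlapped, at 0.434 to 0.957 and 0.109 to 1.46. Within the pan-macrophage list the pooled contrast called Mertk, a receptor for the uptake of dead cells, higher (log2 1.19, adjusted p = 6.69e-04) and Lyz2, lysozyme, lower (log2 -1.10, adjusted p = 0.00252). These were 2 of 12, beside 8.98% of all genes called in that contrast.

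**Figure D3:**
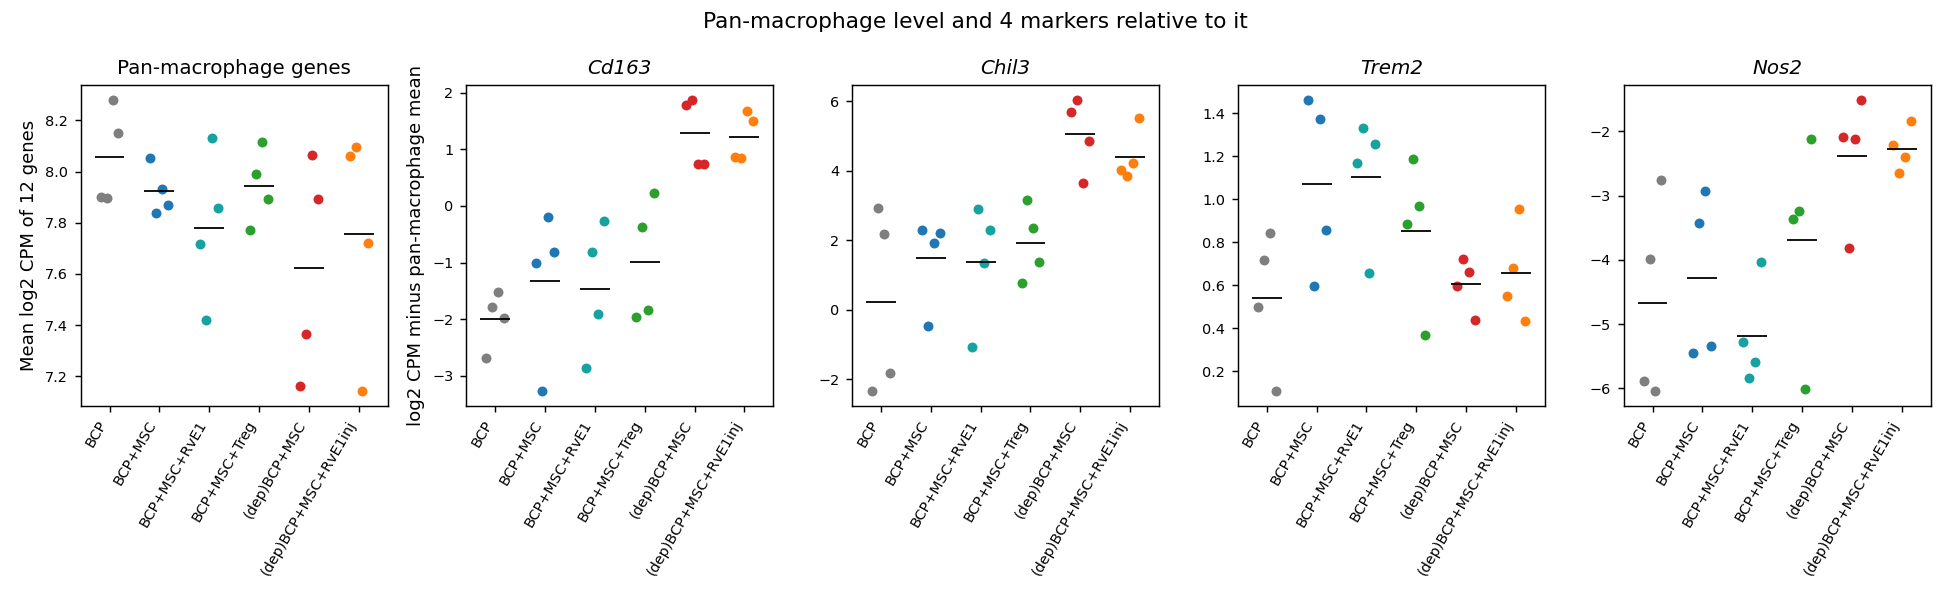
Mean log2 CPM of 12 pan-macrophage genes (left panel), and log2 CPM of Cd163, Chil3, Trem2 and Nos2 minus that mean (other panels), 1 point per construct with group means as black lines. Cd163 lies at 0.74 or more in all 8 toxin-treated constructs and at 0.226 or less in the 16 others.

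The levels of the other resident receptors overlapped between toxin-treated and other constructs. Lyve1, a hyaluronan receptor of vessel-associated macrophages and of lymphatic endothelium, was at 42.5, 30.1, 119 and 54.7 CPM in (dep)BCP+MSC and at 72.4, 87.7, 16.6 and 70.8 CPM in (dep)BCP+MSC+RvE1inj. It ran from 7.40 to 66.3 CPM in the 16 others, and 4 of the 8 toxin-treated constructs were above them all. The pooled log2 fold change was 1.20 (SE 0.36, adjusted p = 0.0263), a call lost without any 1 of 3 toxin-treated constructs: the (dep)BCP+MSC construct of column 4 (adjusted p = 0.0777), and (dep)BCP+MSC+RvE1inj replicates 2 (0.0598) and 4 (0.0544). Without columns 4 and 5 together it was 0.84 (adjusted p = 0.162). Of 6 lymphatic endothelium markers 0 were called in that contrast, beside 8.98% of all genes, a share at which 0 of 6 tells little. Prox1, the defining factor, averaged 1.37 against 1.42 CPM. Their summed level was 71.3 to 175 CPM in toxin-treated constructs and 153 to 341 CPM in the others, most of it from Pdpn, a gene that stromal cells also express, at 112 against 221 CPM (log2 -0.99, adjusted p = 0.00245, short of the fold). The part of lymphatic vessels in Lyve1 was not tested.

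Mrc1, the mannose receptor CD206, was at 419, 591, 1038 and 1278 CPM in (dep)BCP+MSC and at 1090.4, 1008, 985 and 1040.4 CPM in (dep)BCP+MSC+RvE1inj, inside or just above the 239.6 to 1271 CPM of the 16 others. Its pooled log2 fold change of 0.46 had a 95% interval of -0.09 to 1.00 (adjusted p = 0.26). Folr2, folate receptor beta, was the most uneven resident marker, with 25.9, 1.08, 107 and 58.9 CPM in BCP+MSC+RvE1 and 92.4, 97.8, 4.78 and 56.6 CPM in (dep)BCP+MSC+RvE1inj. It differed 131-fold between its lowest and highest construct, and in BCP it lay close together at 68.1, 79.3, 85.0 and 86.8 CPM. Its pooled log2 fold change was 0.01, with an interval of -1.16 to 1.19 that leaves room for a difference in either direction. An antisense gene, Gm10602, and a pseudogene, Gm45319, lie on the opposite strand of Folr2, and reads were counted without regard to strand, so its values are less certain than those of the others.

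The other gene of alternative activation, Retnla, encodes the secreted protein RELM alpha, a strong target of interleukin 4, and gave an estimate near 0. It was at 433, 543, 1205 and 4013 CPM in (dep)BCP+MSC, at 3129, 2962, 4621 and 5584 CPM in (dep)BCP+MSC+RvE1inj and at 3338, 242, 4764 and 2250.3 CPM in BCP+MSC. Its pooled log2 fold change was 0.07 (95% interval -1.14 to 1.27), which does not exclude a change of more than 1 either way. Thus Chil3 and Retnla, often read together, gave 2.74 and 0.07 in the same contrast; the difference between these genes was not tested.

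Local injection of RvE1 in toxin-treated mice asks whether the mediator changes the state left by the toxin. None of the 9 markers passed either rule in (dep)BCP+MSC+RvE1inj against (dep)BCP+MSC, beside 0% of all genes at the adjusted threshold (2269 had an unadjusted p under 0.05, and DESeq2 called 8) and 5.13% at the unadjusted one. Cd163 averaged 507 ± 63.3 CPM (SD, n = 4) with the injection and 486 ± 88.7 CPM without it, a log2 difference of 0.06 (95% interval -1.10 to 1.22). For Chil3 it was -0.47 (-2.41 to 1.47). The largest was that of Retnla, 1.40 (SE 0.96, -0.62 to 3.41, unadjusted p = 0.163), where 3 of the 4 constructs without injection lay below every injected construct and the fourth, at 4013 CPM, lay among them. Without that construct the value was 2.48 (unadjusted p = 0.0301, adjusted p = 0.402), past the looser rule. Over the 8 fits with 1 construct left out the value ran from 1.07 to 2.48, with an unadjusted p under 0.05 in that 1 alone. Without columns 4 and 5 together it was 3.08 (unadjusted p = 0.0289, adjusted p = 0.251), in a fit that called 2.04% of all genes, and with the replicate number as a block as well it was 3.18. Without the shallow libraries it was 0.69. Mrc1 averaged 1031 ± 45.6 CPM with the injection and 831 ± 396 CPM without, a log2 difference of 0.31 (-0.59 to 1.21), an interval that holds both 0 and a change larger than 2-fold. Its spread in the injected group was the smallest of any of the 6 groups.

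In mice not given the toxin, the comparisons ask what MSC add to the ceramic and what each priming adds to MSC. The adjusted rule called 0 of the 9 markers and 0% of all genes in each of the 6 comparisons among BCP, BCP+MSC, BCP+MSC+RvE1 and BCP+MSC+Treg. In them 725 to 4755 genes had an unadjusted p under 0.05, and DESeq2 called 0 to 98. The unadjusted rule called 0 of 9 markers in BCP+MSC against BCP (4.32% of all genes), 0 in BCP+MSC+RvE1 against BCP (8.54%), 0 in BCP+MSC+Treg against BCP (5.85%), 0 in BCP+MSC+RvE1 against BCP+MSC (2.5%), 0 in BCP+MSC+Treg against BCP+MSC (2.56%) and 1, Nos2, in BCP+MSC+Treg against BCP+MSC+RvE1 (2.22%). In the fit of all libraries Nos2 was thus the 1 marker past the looser rule in any of the 6.

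Nos2 was at 21.2, 26.9, 4.26 and 54.7 CPM in BCP+MSC+Treg, at 5.39, 2.95, 5.79 and 14.2 CPM in BCP+MSC+RvE1, at 4.02, 15.0, 4.70 and 42.2 CPM in BCP and, with unprimed MSC, at 6.08, 21.1, 32.1 and 5.75 CPM. The log2 fold change of BCP+MSC+Treg over BCP+MSC+RvE1 was 1.90 (SE 0.83, unadjusted p = 0.0344, adjusted p = 1 in edgeR). The groups overlapped, since 1 Treg construct was at 4.26 CPM, and leaving out BCP+MSC+RvE1 replicate 1, 2 or 3, BCP+MSC+Treg replicate 4 or the shallow libraries took the unadjusted p above 0.05. Against BCP+MSC the values were 0.71 for Treg coculture (95% interval -0.98 to 2.40) and -1.19 for RvE1 priming (-2.90 to 0.52).

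Retnla had the highest mean in BCP+MSC+RvE1, with 979, 11356, 1541 and 4242 CPM against 235, 1676, 2529.7 and 258 CPM in BCP (log2 1.95, SE 0.98, unadjusted p = 0.061). The log2 value ran from 0.94 to 2.65 with 1 construct left out, with an unadjusted p under 0.05 in 3 of 8 fits, and was 0.10 without the shallow libraries. That mean rested on replicate 2, and without it the log2 fold change against BCP+MSC went from 0.77 to -0.23. The same construct had the lowest Folr2 of all 24, 1.08 CPM from 18 counts. Cd163 went from a mean of 71.7 ± 29.4 CPM in BCP through 98.8 ± 69.6 (BCP+MSC+RvE1) and 125 ± 77.3 (unprimed MSC) to 152 ± 104 in BCP+MSC+Treg (SD, n = 4 each), and every pair of these groups overlapped. The widest of these gaps, BCP+MSC+Treg against BCP, was 1.08 on the log2 scale (SE 0.56, unadjusted p = 0.0689, adjusted p = 0.614). With 1 construct left out it ran from 0.62 (without BCP+MSC+Treg replicate 4) to 1.35, with an unadjusted p under 0.05 in 3 of 8 fits, and without the shallow libraries it was 0.30. For BCP+MSC+Treg against BCP the study, using DESeq2, reports Cd163 as upregulated at a p-value under 0.05.

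Constructs of 1 group differed widely, and several markers shared that variation. BCP replicate 1, BCP+MSC replicate 2 and BCP+MSC+RvE1 replicate 1 each had the lowest Cd163, Mrc1, Chil3 and Retnla of their groups. In BCP, Chil3 was at 47.5, 1800.5, 1411 and 80.6 CPM and Retnla at 235, 1676, 2529.7 and 258 CPM, with replicates 1 and 4 far below replicates 2 and 3 in both; these 2 libraries were also among the shallow ones. Over the 16 constructs without toxin the Spearman rho was 0.86 for Cd163 with Mrc1, 0.73 for Retnla with Trem2, 0.71 for Chil3 with Retnla and 0.70 for Folr2 with Lyve1. Cd163 with Lyve1 gave 0.21 and Cd163 with Folr2 0.16, so the resident receptors formed no single block. Over all 24 the rho of Cd163 with Chil3 was 0.84 and over the 16 it was 0.49. These are descriptions, since values of 1 library share its composition and depth.

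**Figure D4:**
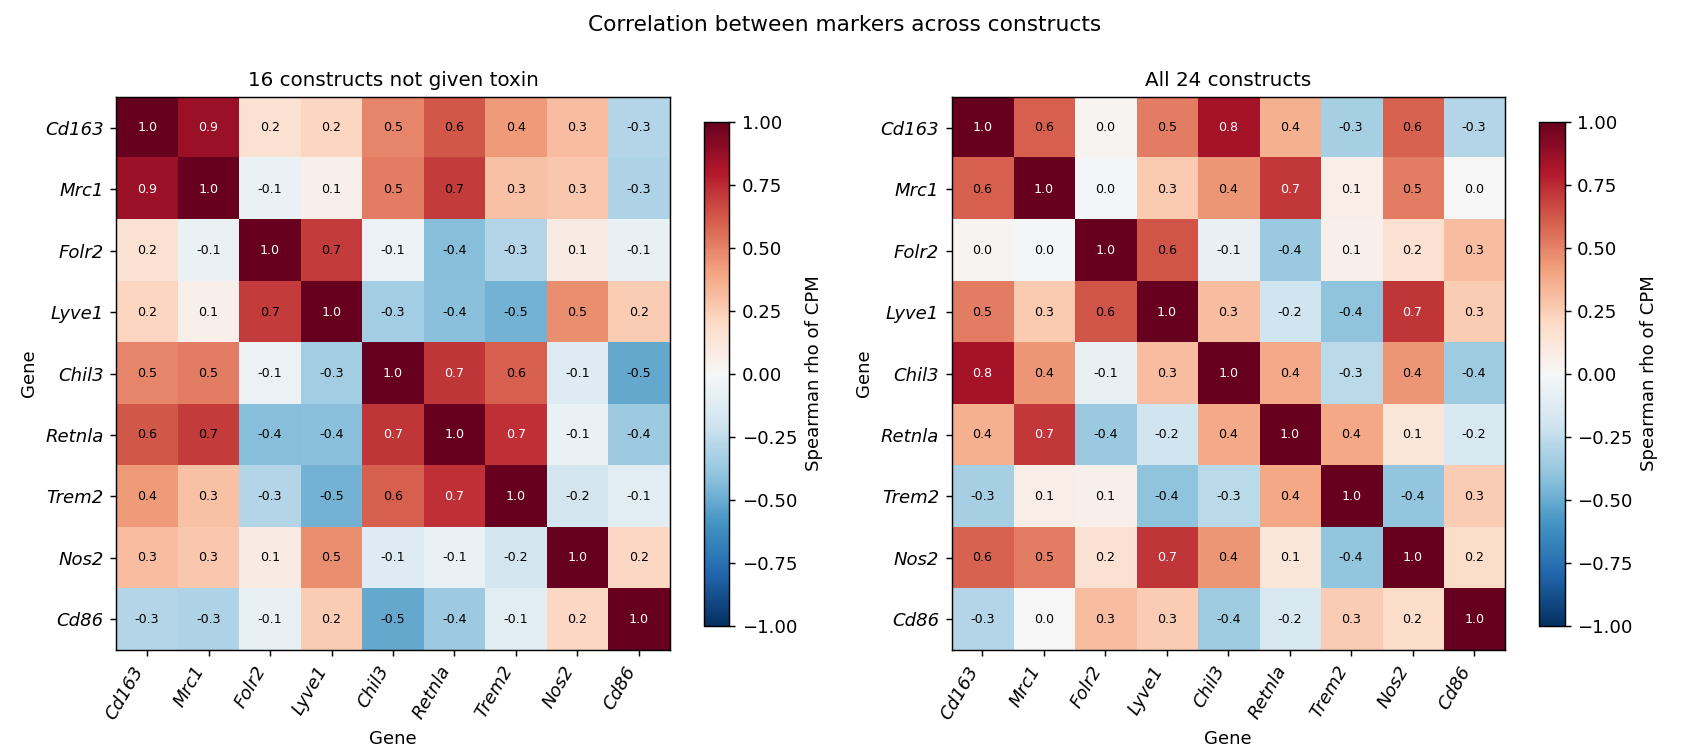
Spearman correlation of CPM between the 9 markers over the 16 constructs of mice not given the toxin (left) and over all 24 (right), with colour from -1 to 1. Cd163, Mrc1, Chil3 and Retnla correlate positively with each other in both, and Folr2 with Lyve1, while Cd163 with Chil3 rises from 0.49 to 0.84 when the toxin-treated constructs are added.

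Of 14304 genes with a median CPM of at least 1, those most like each marker by Spearman rho over the 24 constructs were as follows. Closest to Cd163 were Entpd3 (rho 0.93), Ms4a8a (0.91) and Edn1 (0.91), and closest to Chil3 were Ddx18 (rho 0.89), Lpxn (0.88) and Edn1 (0.87). Edn1, the precursor of endothelin 1, stood in both sets. Mrc1 was most like Il13ra2 (rho 0.91), Msx3 (0.89) and Il4ra (0.89), of which Il4ra encodes the interleukin 4 receptor and Il13ra2 a receptor for interleukin 13. Retnla was closest to Cfp (rho 0.94), Ccl24 (0.93) and Pim2 (0.92), of which Ccl24 is a chemokine for eosinophils. Lyve1 was nearest to Tesk2 (rho 0.89), Cenpu (0.89) and Frmd4b (0.88) and Folr2 to Gm13509 (rho 0.93), Tnfsf13 (0.90) and Man2b1 (0.88). Trem2 was nearest to Rhoc (rho 0.95), Sh3bgrl3 (0.94) and Trpv2 (0.92), Nos2 to Ndrg1 (rho 0.91), Pdk1 (0.88) and Egln3 (0.86) and Cd86 to Cmpk2 (rho 0.86), Trim30d (0.82) and Ifit2 (0.81).

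Other genes of the same programmes moved in both directions in the pooled toxin contrast, in which 8.98% of all genes were called. Of 15 further resident macrophage genes 2 were called higher and 4 lower: Selenop, a selenium transport protein (log2 1.44, adjusted p = 4.24e-06), and Fcna (1.24, 0.00476) were higher, and Cd209g (-3.48, 4.12e-04) and Timd4, the phosphatidylserine receptor TIM-4 (-2.17, 4.91e-04), were among the lower. The list thus had calls in both directions, and its median was -0.19 against -0.01 over all genes. Of 16 further genes of alternative activation 2 were higher, the lectin Clec10a (1.87, 6.71e-06) and the chemokine Ccl17 (1.08, 0.0274), and 1 was lower, Cd209a (-2.11, 0.00226), with a median of 0.15. Chil4, the near-identical neighbour of Chil3, was at a mean of 4.65 against 2.63 CPM and did not pass (adjusted p = 0.489), and reads that align to both were not counted for either.

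Of 16 further genes of lipid-associated and foreign body macrophages, the programme of Trem2, 1 was called, where 8.98% of all genes were: Dcstamp, which is needed for cell fusion, was lower (-1.79, adjusted p = 0.00209). The median was -0.38, and 3 of the 16 estimates were above 0. Of 20 further inflammatory genes 1 was higher, the ectoenzyme Cd38 (1.73, adjusted p = 1.32e-07, 91.5 against 27.5 CPM), and 5 were lower, among them the cytokine gene Tnf (-1.30, 4.56e-04) and the costimulatory Cd80 (-1.25, 6.07e-04). Nos2 and Cd38 thus moved opposite to 5 other genes of inflammatory activation. Of 19 ligands and receptors that set polarization, Ifng, interferon gamma (2.12, 0.0087, 0.771 against 0.19 CPM), and Il10 (1.18, 0.0135) were higher, and the 2 ligands of the CSF1 receptor, Il34 (-1.32, 2.48e-06) and Csf1 (-1.09, 0.00182), were lower. Il4 and Il13, at 4.02 against 5.03 and 1.84 against 3.61 CPM, did not pass (adjusted p = 0.447 and 0.263).

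In (dep)BCP+MSC against BCP+MSC alone, where 3.14% of all genes were called, the called genes of these lists were fewer: Mertk (adjusted p = 0.0261), Selenop (log2 1.52), Clec10a (1.61) and Cd38 (1.90, adjusted p = 4.46e-04) were higher, and Il34 (-1.56, adjusted p = 5.71e-04), Igf1 (-1.20), Cd209f (-3.16), Cd209g (-3.08) and Timd4 (-2.09) were lower. In (dep)BCP+MSC+RvE1inj against BCP+MSC they were Selenop (1.53), Clec10a (1.96) and Cd38 (1.61), higher, and Timd4 (-2.69) and Il34 (-1.04), lower. In both, Cd38 and Clec10a passed a test that Cd163 and Chil3 missed.

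Some markers of other cells were called in the pooled toxin contrast as well, where 8.98% of all genes were. Neutrophil precursors also make Chil3, and of 10 neutrophil markers the pooled contrast called 4 granule genes higher, among them Mmp8 (1.44, adjusted p = 3.83e-04) and Camp (3.11, 8.80e-04), and 2 lower, Cxcr2 (-1.61, 0.00572) and S100a8 (-1.13, 0.0484). The summed level of the 10 was 110.3 to 654 CPM in toxin-treated constructs and 247 to 1114 CPM in the others, and Ly6g averaged 0.389 against 0.549 CPM. Of 8 T cell markers 6 were higher (summed 29.7 to 131 against 17.9 to 69.4 CPM), of 8 dendritic cell markers 4 were lower (163 to 680.4 against 668 to 1402 CPM), and of 7 fibroblast markers 4 were lower (3908 to 15400.2 against 9889 to 45571 CPM). Of 8 skin markers 2 were higher, with 13.9 to 436 CPM in (dep)BCP+MSC, 2.88 to 71.7 CPM in (dep)BCP+MSC+RvE1inj and 1.32 to 88.6 CPM in the others. Of 8 monocyte, 6 B cell and 7 adipocyte markers 0 were called, of 7 osteoclast markers 1 was lower, and of 10 skeletal muscle markers 1 was higher, shares near that of all genes for the last 2 lists. The part of these cells in the levels of Cd163, Chil3 and the other markers was not tested.

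Between genes, levels can be set side by side only per transcript length. Averaged over the 24 constructs, RPKM was 4551 for Retnla, 1629 for Chil3, 120.1 for Mrc1, 13.3 for Lyve1, 6.07 for Nos2 and 2.95 for Cd86. The place of Cd163 depended on the group. Its mean was 13.1 to 27.8 RPKM over the 4 groups without toxin, below Folr2 in each (31.2 to 51.6) and below Trem2 (80.7 to 108). In the toxin-treated groups it was 88.9 to 92.8 RPKM, above Folr2 (40.7 to 42.3) and Trem2 (62.4 to 70.2). These orders are of means and were not tested. The 2 genes of alternative activation had the highest means of the 9 and the 2 inflammatory markers the lowest, in each of the 6 groups. The range from the lowest to the highest construct was widest for Chil3 (229-fold) and Folr2 (131-fold) and narrowest for Cd86 (3.04-fold) and Trem2 (3.38-fold).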

How the data were processed

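RNA was sequenced from whole constructs, 24 libraries in 6 groups of 4, described as biological replicates. The authors made stranded libraries, aligned the reads to the mouse genome with HISAT2 2.0.5 (as the submitters' processing notes name it) and counted them per gene with featureCounts 1.5.2 against GENCODE M13; the notes also list STAR and Picard, without a role for STAR. The deposited values are raw counts, and the deposited table also lists each gene's exon length (in bases, another kind of value), used here for RPKM. The command recorded with them sets no strand option and keeps no multi-mapping reads, and of the 28 libraries it names 4, named after RvE1, have no column and were not analysed here. Symbols (for 50376 of 51138 identifiers) and positions came from GENCODE M21 (GRCm38). The columns numbered 4 and 5 among those of (dep)BCP+MSC could not be matched to 1 sample each and were used without a replicate number.

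Counts were fitted with edgeR 4.0.16 (quasi-likelihood, TMM, robust) in R 4.3.3, with all 6 groups in 1 model without covariates, for the 30564 genes with at least 10 counts in all. Adjustment of p-values followed Benjamini and Hochberg, over those genes. The study used DESeq2, which is an alternative here (1.42.0). A gene was called at an adjusted p under 0.05 where its log2 fold change was also beyond 1 in either direction, and by a looser rule at an unadjusted p under 0.05 with the same fold. CPM are scaled by TMM, log2 CPM have a prior count of 2, and intervals are 95%. 9 comparisons were planned, and the pooled toxin contrast and the fit without 7 libraries under 20000000 counts were added later, with the values known, as was a fit of the 22 numbered libraries without the block. All 9 markers are named. For the pooled contrast, up to 2 called genes per direction, those with the smallest p, are named from the macrophage, polarization and neutrophil lists. The called genes of the other cell lists are given as counts. In the comparisons with BCP+MSC alone, all called genes of the macrophage and polarization lists are named. Other genes named were picked with their values known. The members and lists were chosen with earlier results of these data known, and some items are not reported here. Alternatives were RLE scaling, scaling to 12 pan-macrophage genes, filterByExpr, no filter, a fit of only the 2 groups, DESeq2, the replicate number as a block (22 libraries, without columns 4 and 5) and each replicate left out. On simulated counts for (dep)BCP+MSC against BCP+MSC, with 29684 genes, 73 of 100 genes changed 4-fold and 15 of 100 changed 2-fold reached an adjusted p under 0.05, as did 6 unchanged genes. Promoters are from RefSeq, tables were handled in Python 3.11.15 with pandas 2.3.3, and figures drawn with matplotlib 3.10.9.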

Additional observations from a re-analysis of the deposited data

Results flagged for a closer look

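The 9 markers were checked in each of the 6 groups, 54 sets of 4 constructs, for a construct far from the other 3, and 2 were found by Dixon's criterion, where chance alone marks about 1 in 20. Lyve1 was at 16.6 CPM in (dep)BCP+MSC+RvE1inj replicate 3, where the others were at 70.8 to 87.7 CPM. The same construct had 4.78 CPM of Folr2 against 92.4, 97.8 and 56.6 CPM in replicates 1, 2 and 4. Its library was a shallow one, with 222 counts of Lyve1. Chil3 was at 166 CPM in BCP+MSC replicate 2, where the others were at 917 to 1294 CPM. That library was not shallow, with 59100607 counts.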

How the results depend on the processing

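The count of markers called at the adjusted threshold, 0 in (dep)BCP+MSC against BCP+MSC, was 1 with scaling to the pan-macrophage genes, 1 with filterByExpr, 1 in a fit of only those groups, 2 with DESeq2 and 2 by the unadjusted rule. Over all genes the first 4 of these settings called 1041, 1153, 157 and 1842, where the main fit called 959. The unadjusted rule called 13.2% of all genes. The fit with the replicate block also leaves out the (dep)BCP+MSC columns 4 and 5, which have no number. It called 3 markers (Cd163, Trem2 and Cd86), beside 2149 of all genes. The same 22 libraries without the block, a fit added later, called 2 (Trem2 and Cd86), beside 2685 of all genes (8.92%). For (dep)BCP+MSC+RvE1inj against BCP+MSC, also 0, the count of markers was 2 with DESeq2 (beside 852 of all genes) and 2 by the unadjusted rule (beside 9.45%). For BCP+MSC+Treg against BCP+MSC+RvE1 it was 1 by the unadjusted rule (beside 2.22%). The pooled toxin contrast had 3 or 4 called markers in each setting except the 22 libraries without the block, where it had 2. Over all genes it called 2744 in the main fit. Across the settings this ran from 1055 (without the shallow libraries) to 3332 (scaling to the pan-macrophage genes). The replicate numbers name different animals and did not pair them (correlations of deviations -0.62 to 0.62, 5 of 22 libraries closest to their own number). In the pooled contrast Nos2 was 1.40 (adjusted p = 0.11) with the block and 1.14 (0.162) in the 22 libraries without it.

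Values that changed direction were all short of a call. With pan-macrophage scaling this was Cd86, at 0.023 in the pooled contrast. In the 22 numbered libraries they were, in that contrast, Folr2 (-0.043 with the block and -0.40 without) and Retnla (-0.56 and -0.75). Without the shallow libraries they were Retnla (-0.0023) and Cd86 (0.17) in the pooled contrast, and Retnla in BCP+MSC+RvE1 against BCP+MSC (-0.22) and in BCP+MSC+Treg against BCP+MSC+RvE1 (0.37). Leaving out 1 construct at a time gave, in the pooled contrast, -0.22 to 0.21 for Folr2, where the lower values without a toxin-treated construct included -0.13, and -0.50 to 0.32 for Retnla (-0.049 without (dep)BCP+MSC+RvE1inj replicate 4). For Retnla it gave -0.23 to 1.22 in BCP+MSC+RvE1 against BCP+MSC and -1.62 to 0.06 in BCP+MSC+Treg against BCP+MSC+RvE1 (the highest, 0.062, without BCP+MSC+RvE1 replicate 2). The cause of these changes was not tested. None of the 54 group means moved by more than its SD under RLE scaling.

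The count of all genes called, the background of the markers, was 959 in (dep)BCP+MSC against BCP+MSC, 157 in a fit of only these groups, 2685 in the 22 libraries without the block, 2149 with it, 1842 with DESeq2, 535 without the shallow libraries and 422 to 1354 with 1 construct left out. For (dep)BCP+MSC+RvE1inj against BCP+MSC it was 202, then 40, 309, 224, 852, 13 and 44 to 204. In the pooled contrast it was 2744, and 1055 without the shallow libraries. In (dep)BCP+MSC+RvE1inj against (dep)BCP+MSC, 0 became 615 in the 22 libraries without the block, 329 with it and 8 with DESeq2. Of the 9 markers, Folr2, Nos2 and Cd86 had the fewest counts in their lowest libraries, with 18, 49 and 56. How far depth limits each marker was not tested, and most 2-fold changes were missed in the simulated data.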
